A study of Mus with 6 samples.

Results

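The 10 genes described here belong to the unfolded protein response (UPR) and the integrated stress response (ISR) of mouse cells. They were chosen by Ensembl ID from the pathways' best known factors, chaperones and targets, with earlier results of these data known. All 10 were among the 15646 genes of the deposited count table and among the 14348 that passed a filter on low counts. Total RNA had been sequenced from pancreatic tumors grown in the pancreas of genetically obese ob/ob mice (3 libraries, obese 1, 3 and 4) and of lean wild-type mice (3 libraries, lean 1, 2 and 3). The ob/ob hosts lack functional leptin and the lean hosts do not. The tumors of both groups were implanted from 1 cancer cell line, KPC1199, a mouse pancreatic ductal adenocarcinoma line. The sources used here do not state host age, sex or weight, nor whether each library came from a separate mouse. The p-values thus set the group difference against the spread between these libraries, estimated with help from all genes, and that spread may be technical.

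The UPR is set off when unfolded proteins collect in the endoplasmic reticulum (ER). The sensor IRE1 splices the mRNA of Xbp1, the sensor ATF6 is cleaved into a transcription factor, and both raise the production of ER chaperones. The sensor PERK phosphorylates the initiation factor eIF2α, and this is also the point where the ISR begins, since other kinases reach the same factor on amino acid shortage, viral RNA or heme shortage; general translation falls while Atf4 mRNA is translated more. Secretory cells of the pancreas depend strongly on this system, and it has been studied in pancreatic cancer as a response to nutrient and oxygen shortage. Much of the control acts on splicing, cleavage and translation, which counts of whole genes do not show.

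The libraries held 7122533 to 8521244 counts. The first principal component of log2 CPM separated the groups, and on the second obese 3 lay at -37.7 while the remaining 5 libraries lay at -6.45 to 17.5, so results are also given without obese 3 where they rest on it. The table gives no gene symbols, and the RefSeq gene table used here pairs 0 Ensembl IDs with symbols, so the tumor label and the presence of other cell types could not be checked against marker genes, and no wider list of UPR or ISR genes was counted. In bulk tumor RNA, fewer cells of a type and less RNA per cell cannot be told apart. How strand was handled in counting is not stated. In the RefSeq annotation of GRCm38.p6, Hspa5 shares 1921 bases of its annotated span with Rabepk, Ddit3 shares 148 bases with Mbd6 and Mars1, and Pdia4 shares 77 bases with Mir704. These are overlaps of whole gene spans, taken without regard to exons or strand. Whether reads from these stretches could be assigned to 1 gene is not known.

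Of the 10 genes, 1 rose, 0 fell and 9 did not pass the test in tumors of obese against lean mice (edgeR quasi-likelihood test, p under 0.05 after Benjamini-Hochberg adjustment over the whole table). Of all genes tested, 20.8% passed, of which 10.3 points were genes higher in obese hosts and 10.6 points genes lower there. The share among the 10 genes was not above this background. At an unadjusted p under 0.05, 3 of the genes would have counted as higher and 1 as lower, where the share of all genes tested was 18.2% higher and 18.0% lower. CPM values (counts scaled to a common library size, with TMM factors) were higher in every obese than in every lean library for 3 genes and lower in every obese library for 0. The background for these patterns was 20.3% and 20.0% of genes. The median log2 fold change of the 10 genes was 0.16, against 0.01 over all genes tested, and the median size without regard to sign was 0.29, against 0.32. The balance of calls over the whole table moved with scaling: the part of the calls that lay higher in obese hosts was 49.3% with TMM factors and 60.6% with total counts only.

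**Figure D1:**
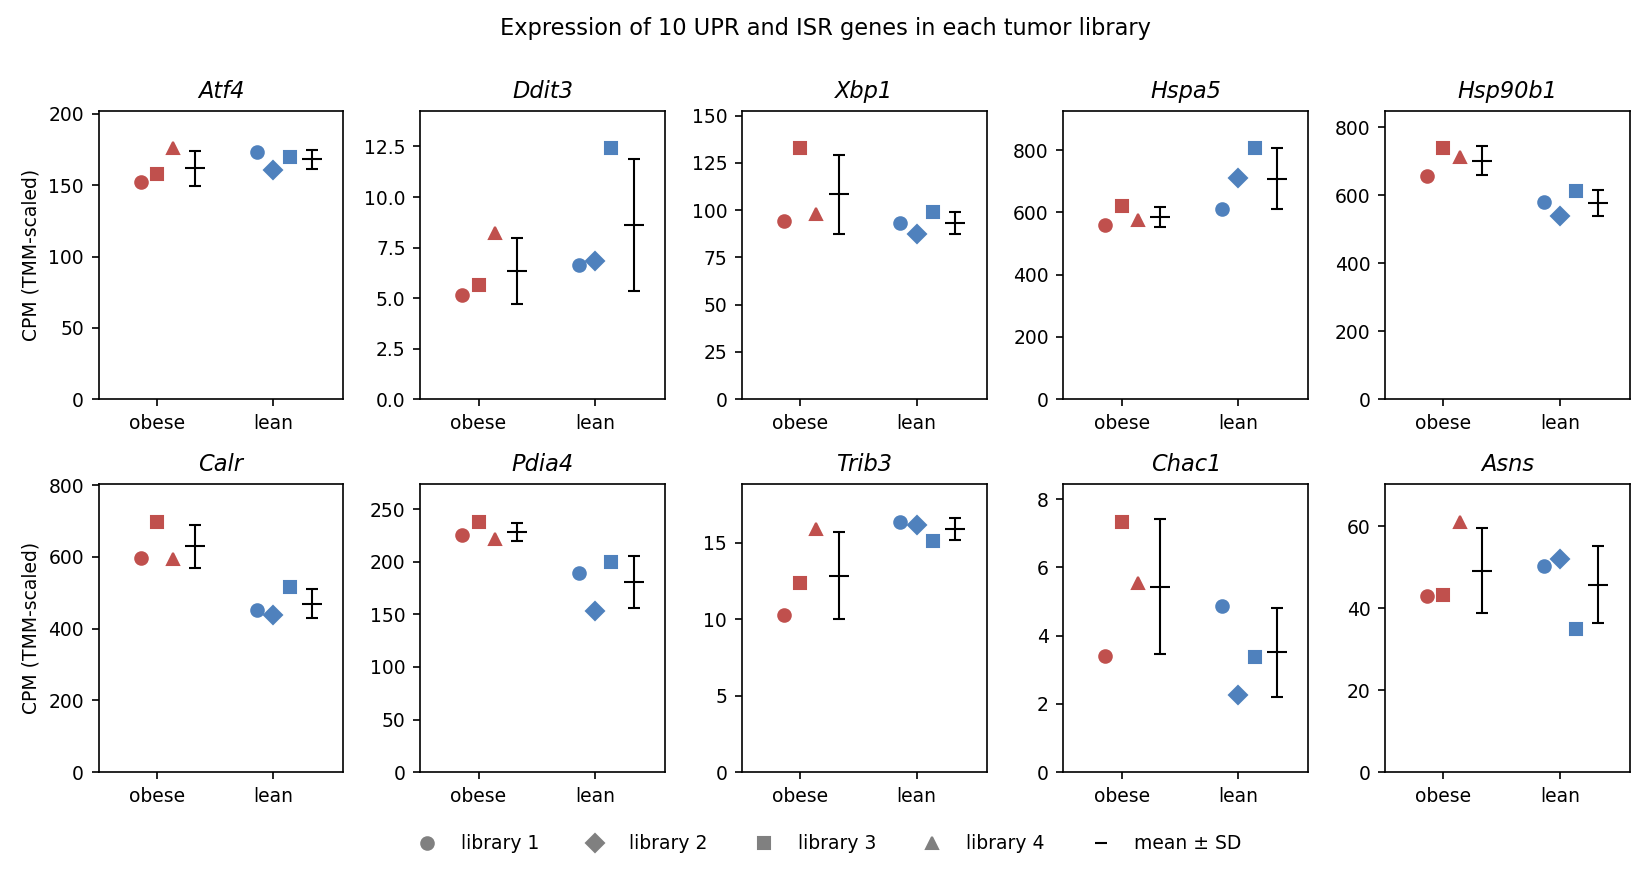
CPM (counts scaled to a common library size with TMM factors, linear axes from 0) of the 10 genes in each tumor library, obese left and lean right, with the mean and SD of 3 libraries in black. The groups are separate for Calr, Pdia4 and Hsp90b1 and overlap for the other 7 genes.

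The ER chaperones and foldases held the only change that passed. Of these 4 genes, 1 rose and 3 did not pass, with the fitted values of 3 above 0 and that of Hspa5 below 0. Calr (ENSMUSG00000003814, chromosome 8, 84842088 to 84846931) encodes calreticulin, a calcium-binding lectin chaperone that retains unfinished glycoproteins in the ER. It measured 596.5, 698.7 and 594.2 CPM in obese 1, 3 and 4, against 453.3, 439.5 and 517.6 CPM in lean 1, 2 and 3. Each obese library lay above each lean one, and obese 3 was the highest of all. Its mean was 629.8 ± 59.7 CPM in obese and 470.2 ± 41.7 CPM in lean tumors (SD, n = 3 each). The rise was 1.34-fold with a 95% interval of 1.14 to 1.58, and its log2 value was 0.42 (SE 0.11, edgeR adjusted p = 0.0209). Without obese 3 the log2 fold change was 0.35 (edgeR adjusted p = 0.0336). The call was lost without lean 1 (log2 0.39, edgeR adjusted p = 0.0574) and without lean 2 (log2 0.37, edgeR adjusted p = 0.0946).

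Pdia4 (ENSMUSG00000025823, chromosome 6, 47796141 to 47813512) encodes a protein disulfide isomerase of the ER, an enzyme that forms and rearranges disulfide bonds. It measured 225.3, 238.1 and 221.4 CPM in obese 1, 3 and 4, against 189.2, 152.8 and 200 CPM in lean 1, 2 and 3. The groups did not overlap, and the obese libraries were close together while lean 2 was low. The difference did not pass the threshold, with a log2 fold change of 0.34 (SE 0.11, edgeR adjusted p = 0.0573) and a 95% interval of 1.06- to 1.5-fold. The unadjusted edgeR p was 0.013. The result lay so near the threshold that upper-quartile factors (edgeR adjusted p = 0.0435), total counts only (0.0306) and a robust edgeR fit (0.0498) put it on the other side. Without lean 2 its log2 fold change was 0.23 (edgeR adjusted p = 0.193).

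Hsp90b1 (ENSMUSG00000020048, chromosome 10, 86690841 to 86705444) encodes GRP94, the HSP90 chaperone of the ER lumen, whose clients include integrins and Toll-like receptors. Its values were 655.5, 737.4 and 712.1 CPM in obese 1, 3 and 4, against 580.0, 538.2 and 613.4 CPM in lean 1, 2 and 3. Again every obese library was above every lean one, and the gap between obese 1 and lean 3 was smaller than the range within either group. The log2 fold change of 0.28 (SE 0.10, edgeR adjusted p = 0.0611) did not pass, and its 95% interval was 1.05- to 1.41-fold. It passed with upper-quartile factors (edgeR adjusted p = 0.0423), with total counts only (0.0291) and in limma-voom (limma adjusted p = 0.0461). It did not pass with any 1 library left out (edgeR adjusted p = 0.0829 to 0.209) or with a block for the replicate number (0.278). With that block only obese 1 and 3 and lean 1 and 3 inform the difference.

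Hspa5 (ENSMUSG00000026864, chromosome 2, 34772090 to 34776529) encodes BiP, the HSP70 chaperone of the ER lumen that binds the 3 UPR sensors and is a widely used marker of UPR activity. It measured 558.7, 620.3 and 576.6 CPM in obese 1, 3 and 4, against 611.3, 710.0 and 805.6 CPM in lean 1, 2 and 3. Only obese 3 and lean 1 were in the reverse order, and the lean libraries were the more widely spread. The means were 585.2 ± 31.7 CPM in obese and 709.0 ± 97.1 CPM in lean tumors (SD, n = 3 each). The fitted log2 fold change of -0.28 (SE 0.11, 95% interval 0.694- to 0.982-fold) had an unadjusted edgeR p of 0.0336 and an edgeR adjusted p = 0.106, and did not pass. It passed without lean 1 (log2 -0.38, edgeR adjusted p = 0.0453), and without lean 3 it was -0.18 (edgeR adjusted p = 0.336).

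**Figure D2:**
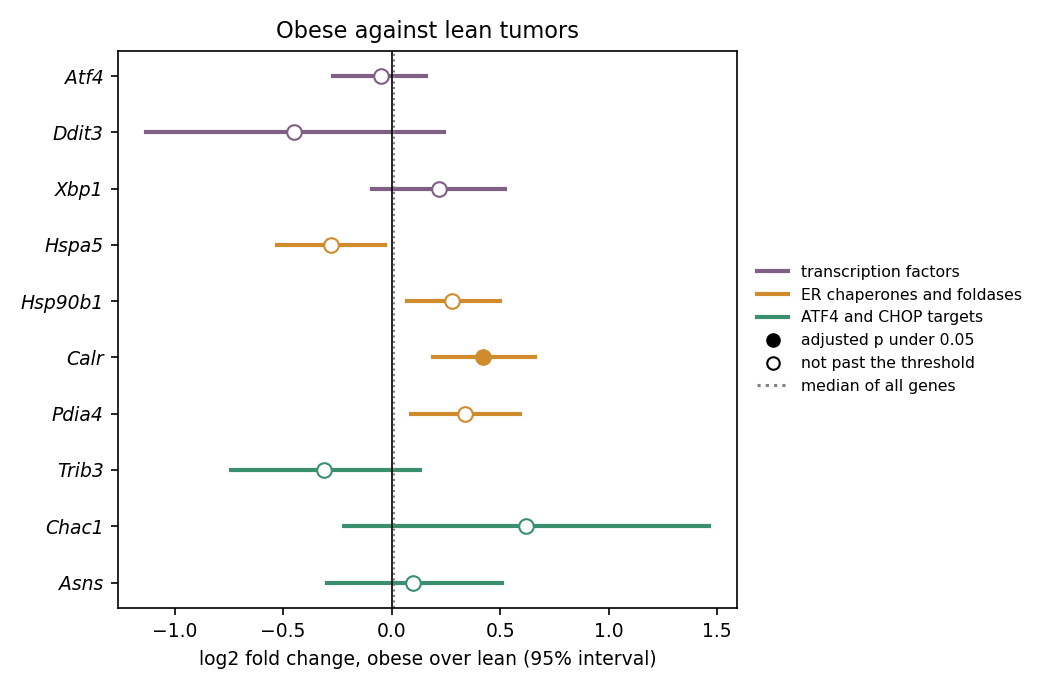
Fitted log2 fold change of each gene, obese over lean, with its 95% interval from the edgeR fit on 3 libraries per group. Calr is the 1 filled point past the adjusted threshold; the interval of Hspa5 lies below 0, those of Calr, Pdia4 and Hsp90b1 lie above 0, and those of the other 6 genes include 0.

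Within a library, ratios between 2 genes do not depend on how the library was scaled, though the 1921 bases that Hspa5 shares with Rabepk may affect its ratios. Ratios come from the same counts as the fold changes above, so they are not separate evidence that Hspa5 differs from the other chaperones. These ratios are of counts, not of transcripts, since gene lengths were not used; they compare libraries and not genes, and none was tested. The ratio of Hspa5 to Hsp90b1 was 0.852, 0.841 and 0.81 in obese 1, 3 and 4, against 1.05, 1.32 and 1.31 in lean 1, 2 and 3. The groups did not overlap in this ratio. Of single genes tested, 20.3% were higher and 20.0% lower in every obese than in every lean library, and the share among gene pairs was not counted. On the log2 scale the ratio averaged -0.26 ± 0.04 in obese and 0.29 ± 0.19 in lean tumors (SD, n = 3 each), a difference of -0.55. The ratio of Pdia4 to Hspa5 was 0.403, 0.384 and 0.384 in obese 1, 3 and 4, against 0.31, 0.215 and 0.248 in lean 1, 2 and 3. It too separated the groups, by 0.62 on the log2 scale, and the obese tumors were nearly equal while lean 1 stood nearest to them in both ratios.

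The ratio of Calr to Hsp90b1 differed less between the groups. It was 0.91, 0.948 and 0.834 in obese 1, 3 and 4, against 0.782, 0.817 and 0.844 in lean 1, 2 and 3, and obese 4 fell within the lean range. The ratio of Hspa5 to Atf4 was 3.66, 3.93 and 3.28 in obese 1, 3 and 4, against 3.52, 4.41 and 4.74 in lean 1, 2 and 3, with overlap. Summed over the 4 chaperones, the level was 2036.1 to 2294.4 CPM in obese and 1833.9 to 2136.6 CPM in lean libraries, and these ranges overlapped, with Hspa5 lower and the other 3 higher on average in obese tumors.

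**Figure D3:**
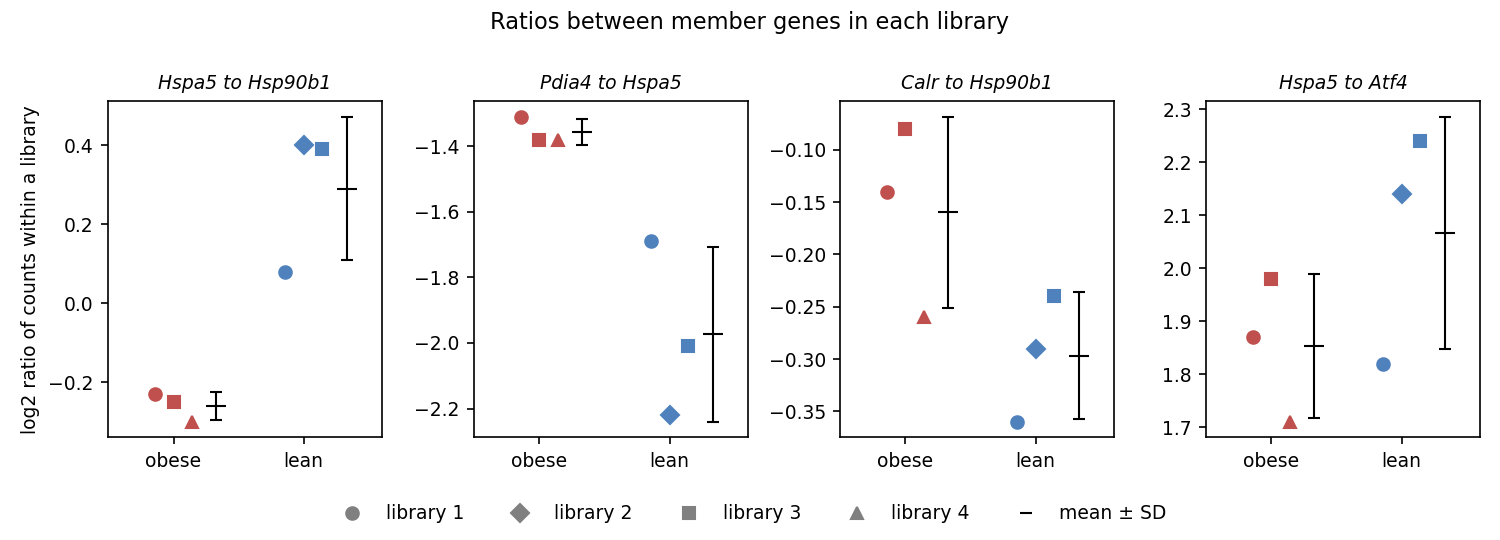
Log2 ratio of the counts of 2 genes within each library, obese left and lean right, with the mean and SD of 3 libraries in black; axes differ between panels and do not start at 0. The ratio of Hspa5 to Hsp90b1 lies between -0.30 and -0.23 in obese and between 0.08 and 0.40 in lean libraries, and the ratios of Calr to Hsp90b1 and of Hspa5 to Atf4 overlap.

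None of the 3 transcription factors passed the test (edgeR), 0 of them at an unadjusted p under 0.05. Atf4 (ENSMUSG00000042406, chromosome 15, 80255184 to 80257545) encodes the factor at the center of the ISR, which turns on amino acid synthesis and transport genes. It measured 152.5, 157.7 and 175.8 CPM in obese 1, 3 and 4, against 173.5, 160.9 and 170.0 CPM in lean 1, 2 and 3. The obese range enclosed the lean one. Its log2 fold change was -0.05 (SE 0.10, edgeR adjusted p = 0.729), and the 95% interval of 0.83- to 1.12-fold was the narrowest among the factors. With total counts only, the sign turned to 0.0054 on the log2 scale.

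Ddit3 (ENSMUSG00000025408, chromosome 10, 127290793 to 127296291) encodes CHOP, a factor induced by ATF4 that is known for its part in cell death under lasting ER stress. It had few counts, with 44, 46 and 68 counts in obese 1, 3 and 4, against 56, 48 and 99 counts in lean 1, 2 and 3. In CPM these were 5.16, 5.63 and 8.21 in obese 1, 3 and 4, against 6.65, 6.82 and 12.4 in lean 1, 2 and 3. Lean 3 was the highest by far, its 99 counts having an exact Poisson 95% interval of 80.5 to 121, which covers counting error only. The log2 fold change of -0.45 (SE 0.31, edgeR adjusted p = 0.329) had an interval of 0.456- to 1.18-fold. Without lean 3 it was -0.09 (edgeR adjusted p = 0.874). The ratio of Ddit3 to Atf4 was 0.0338, 0.0357 and 0.0467 in obese 1, 3 and 4, against 0.0383, 0.0424 and 0.0729 in lean 1, 2 and 3, with overlap and the same high lean 3.

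Xbp1 (ENSMUSG00000020484, chromosome 11, 5520641 to 5525993) encodes the factor that acts once IRE1 has spliced its mRNA and that is also needed for the secretory apparatus of acinar and plasma cells. Gene counts do not tell its spliced from its unspliced form. It measured 94.4, 132.6 and 97.9 CPM in obese 1, 3 and 4, against 93.4, 87.3 and 99.0 CPM in lean 1, 2 and 3. Obese 3 alone lay above the lean range. The log2 fold change was 0.22 with all libraries (SE 0.14, edgeR adjusted p = 0.287) and 0.05 without obese 3 (edgeR adjusted p = 0.794).

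The 3 genes known as targets of ATF4 and CHOP did not pass either (edgeR), again with 0 at an unadjusted p under 0.05. Trib3 (ENSMUSG00000032715, chromosome 2, 152337425 to 152344060) encodes a pseudokinase that binds AKT and ATF4 and dampens ATF4 activity. It measured 10.3, 12.4 and 15.9 CPM in obese 1, 3 and 4, against 16.4, 16.2 and 15.1 CPM in lean 1, 2 and 3. The lean libraries lay close together, and obese 4 reached into their range from below. Its log2 fold change was -0.31 (SE 0.20, edgeR adjusted p = 0.294), and without obese 1 it was -0.17 (edgeR adjusted p = 0.637).

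Chac1 (ENSMUSG00000027313, chromosome 2, 119351242 to 119354326) encodes an enzyme that breaks down glutathione and is induced through ATF4 and CHOP. It too had few counts, with 29, 60 and 46 counts in obese 1, 3 and 4, against 41, 16 and 27 counts in lean 1, 2 and 3. In CPM these were 3.40, 7.34 and 5.55 in obese 1, 3 and 4, against 4.87, 2.27 and 3.38 in lean 1, 2 and 3. Obese 3 and 4 were above every lean library, and obese 1 lay among the lean ones. The log2 fold change of 0.62 had an SE of 0.38, the widest of the 10 genes in this fit, and a 95% interval of 0.856- to 2.75-fold (edgeR adjusted p = 0.271). The exact Poisson 95% interval of the 16 counts in lean 2 was 9.15 to 26.0. Without lean 2 the log2 fold change was 0.39 (edgeR adjusted p = 0.554), without obese 3 it was 0.35 (0.596), and without lean 1 it was 0.93 (0.153).

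Asns (ENSMUSG00000029752, chromosome 6, 7675165 to 7693209) encodes asparagine synthetase, a classical ATF4 target on amino acid shortage. It measured 42.9, 43.3 and 61.1 CPM in obese 1, 3 and 4, against 50.2, 52.0 and 35.0 CPM in lean 1, 2 and 3. Obese 4 was the highest and lean 3 the lowest library. Between them, obese 1 and 3 lay below lean 1 and 2, opposite to the fitted sign. The log2 fold change of 0.10 (SE 0.18, edgeR adjusted p = 0.725, 95% interval 0.811- to 1.42-fold) turned to -0.09 without obese 4 and to -0.06 without lean 3. The ratio of Asns to Atf4 ranged from 0.275 to 0.347 in obese and from 0.206 to 0.323 in lean libraries.

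Ratios to Ddit3 also overlapped between the groups. The ratio of Trib3 to Ddit3 was 2.0, 2.20 and 1.94 in obese 1, 3 and 4, against 2.46, 2.37 and 1.22 in lean 1, 2 and 3. The obese libraries lay inside the lean range. The ratio of Chac1 to Ddit3 was 0.659, 1.30 and 0.676 in obese 1, 3 and 4, against 0.732, 0.333 and 0.273 in lean 1, 2 and 3. Lean 1 lay within the obese range, and the 2 other lean libraries lay below it.

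Within a group, the 4 chaperones were highest in the same library, and the other genes were divided. In obese tumors, all 4 chaperones were highest in obese 3, as were Xbp1 and Chac1, whereas Atf4, Ddit3, Trib3 and Asns were highest in obese 4. Obese 1 was the lowest of its group for 8 of the 10 genes. In lean tumors all 4 chaperones, Xbp1 and Ddit3 were highest in lean 3, and lean 3 was lowest for Trib3 and Asns. Lean 2 was the lowest of its group for 6 genes. These are descriptions of 3 libraries per group, and the part of obese 3's distinct position on the second principal component in its chaperone levels was not tested.

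The spread differed among the genes with few counts. Over the libraries of a group, the coefficient of variation was 25.9% in obese and 37.9% in lean tumors for Ddit3, and 36.3% in obese and 37.1% in lean tumors for Chac1. Counting alone would give 13.8% in obese and 12.2% in lean tumors for Ddit3, and 14.9% in obese and 18.9% in lean tumors for Chac1. Trib3, at 88 to 138 counts per library, varied by 22.1% in obese and 4.19% in lean tumors. Counting alone would give 9.67% in obese and 8.97% in lean tumors, so the lean spread of Trib3 lay below the counting level. For Calr the coefficient was 9.47% in obese and 8.87% in lean tumors, against a counting part of 1.38% in obese and 1.65% in lean tumors. The counting part leaves out any difference between tumors, and these coefficients were not tested against each other.

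**Figure D4:**
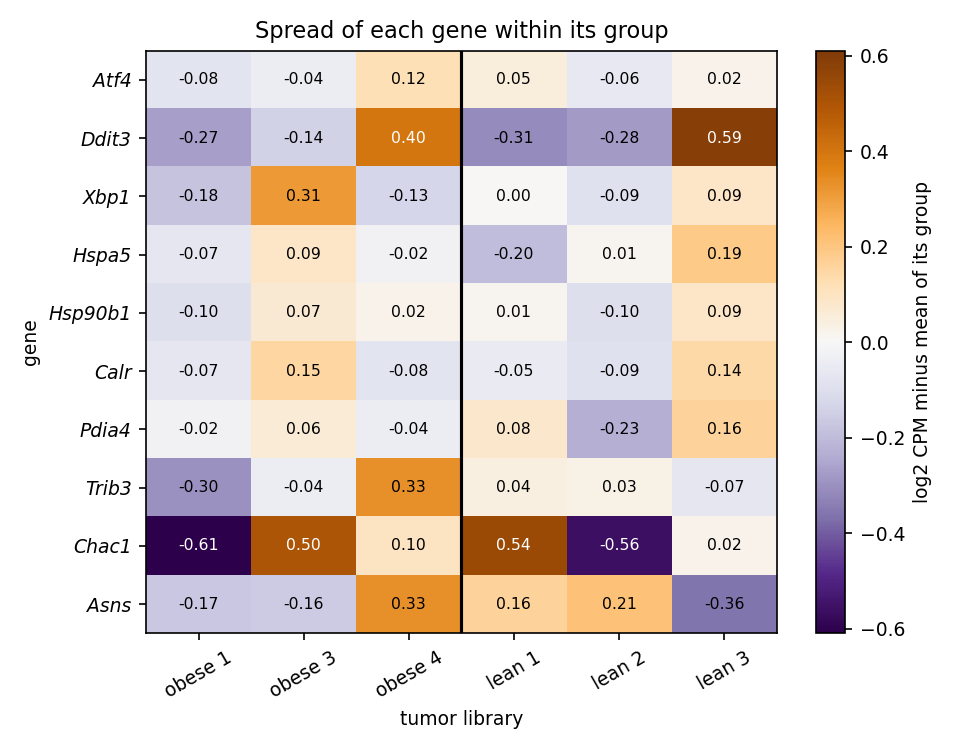
Deviation of each gene in each library from the mean of its own group, in log2 CPM, with obese libraries left of the black line and lean libraries right of it. The 4 chaperone rows are highest in obese 3 and in lean 3, while Atf4, Ddit3, Trib3 and Asns are highest in obese 4; Chac1 spans -0.61 to 0.50 in obese and -0.56 to 0.54 in lean libraries.

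The direction of the chaperone results was kept under all 15 alternative settings for each of the 4 genes, and the side of the threshold was not. The log2 fold change of Calr was 0.35 to 0.50 when 1 library was left out and 0.41 to 0.49 under the other settings. That of Pdia4 was 0.23 to 0.41 and 0.25 to 0.40, and that of Hsp90b1 was 0.23 to 0.33 and 0.22 to 0.34. Hspa5 stayed between -0.38 and -0.18 with 1 library left out and between -0.28 and -0.21 otherwise.

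**Figure D5:**
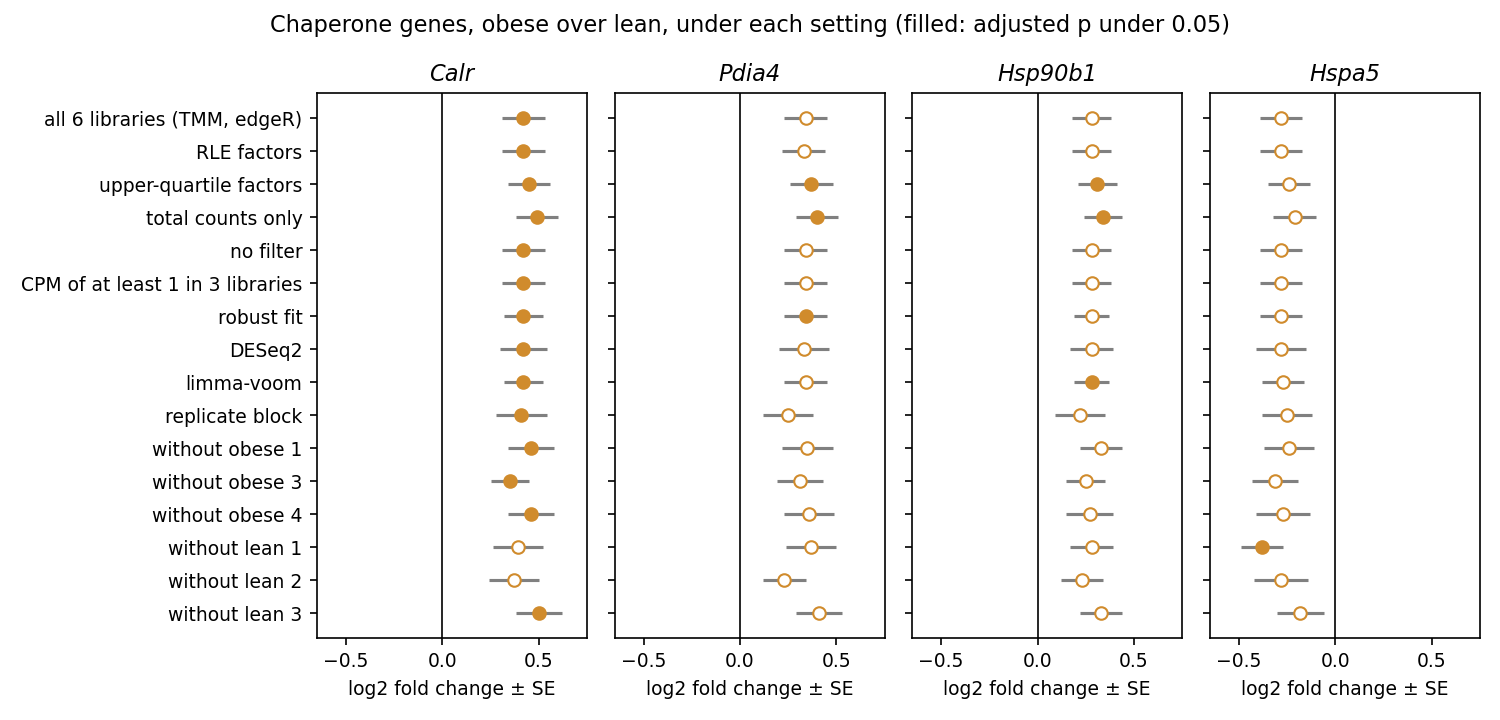
Log2 fold change of the 4 chaperone genes, obese over lean, with its SE, for all 6 libraries and for 15 alternatives; filled points have an adjusted p under 0.05. Calr, Pdia4 and Hsp90b1 lie right of 0 and Hspa5 lies left of 0 in every row, and the fill changes between rows for each gene.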

How the data were processed

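Per the labels' protocols, total RNA was depleted of ribosomal RNA before library construction. The authors deposited raw counts per Ensembl gene. CASAVA, STAR and Subread were used with GRCm38, per the submitters' processing notes; their versions and settings, and the use of strand, are not stated in those notes. The lowest sum of a listed gene was 11, so scarce genes had been removed beforehand. Titles beginning with OB were taken as obese and ND as lean, and libraries keep the number of their title.

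Differences were fitted in R 4.3.3 with edgeR 4.0.16: expression filter at its defaults (minimum count 10, minimum total 15), TMM factors, quasi-likelihood F test without covariates, two-sided, Benjamini-Hochberg over 14348 genes. The SE is the log2 fold change divided by the square root of F, and 95% intervals use the fit's t distribution. The script was checked on simulated counts. The alternatives were other scalings and filters, a robust fit, DESeq2 1.42.0, limma-voom (limma 3.58.1), a block for the replicate number, and the removal of 1 library at a time. With the block, only the libraries whose number occurs in both groups inform the difference. Principal components used a prior count of 2.

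The members and lists were chosen with earlier results of these data known. All 10 members are named, whatever their values, by symbols that came with the list of IDs. Wider UPR, ISR and cell type lists, set by symbol, were not used here, as the IDs could not be matched. Coordinates, matched by symbol, are those of RefSeq on GRCm38.p6. No sequence is shown.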

Additional observations from a re-analysis of the deposited data

How the results depend on the processing

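The count of the 10 genes past the threshold, 1 with all 6 libraries, was 3 with upper-quartile factors and with total counts only, 2 with the robust fit and with limma-voom, and 0 to 1 with 1 library left out (0 without lean 2, and Hspa5 in place of Calr without lean 1). The count over all genes, 2991, was 1179 to 3066 with 1 library left out (1179 without lean 2, 1461 without obese 1, 1541 without lean 3, 1956 without obese 4) and 2087 to 3011 otherwise. Of 150 results of single genes under the alternatives, 138 kept direction and side, 2 lost and 7 gained the threshold, and 3 turned in sign, each past no threshold: Atf4 with total counts only (0.0054), and Asns, at -0.09 to 0.20 with 1 library left out, without obese 4 (-0.09) and without lean 3 (-0.06). The cause was not tested.

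Numbers 1 and 3 occur in both groups. The deviations of like-numbered libraries from their group means correlated at 0.0901 and 0.0744. Those of unlike-numbered libraries correlated at -0.131 to 0.0663, so the like-numbered values were the highest, by a small margin. Whether a number pairs the libraries is not known. The numbers of obese 4 and lean 2 occur in 1 group each. With the replicate block, the group difference thus came from obese 1 and 3 against lean 1 and 3 only. The block therefore changed the libraries compared as well as the adjustment. In this fit 2087 genes and 1 of the 10 were called, Calr (log2 0.41, edgeR adjusted p = 0.04). Ddit3 was at -0.77 (edgeR adjusted p = 0.156), and Chac1 was at 0.31 (edgeR adjusted p = 0.703). The alternatives for wider lists were not run. Depth limits Chac1 and Ddit3 more than the other members, at 16 to 99 counts per library. Their spread between libraries also exceeded the counting part in both groups.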
